A study of Drosophila melanogaster with 12 samples.

Results

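The long noncoding RNA lncRNA:Hsromega (FBgn0001234, also called hsr-omega or 93D) was followed through an RNA immunoprecipitation sequencing (RIP-seq) experiment on *Drosophila melanogaster* heads. It was taken by its gene identifier and is 1 of the 17612 genes in the deposited table of read counts. The level of Hsromega in the heads, and whether it was more or less abundant in RNA pulled down with the protein Caper than in the lysate it came from, are described here. Caper is an RNA-binding protein and splicing regulator, and is the fly ortholog of human RBM39.

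Hsromega is among the best known stress RNAs of the fly. Its gene is active in most cells and is one of the loci most strongly induced by heat shock. Long, unspliced nuclear transcripts carry short tandem repeats and organise the omega speckles, nuclear bodies next to chromatin that store hnRNPs and other RNA-processing proteins. Heat stress draws many of these proteins to the Hsromega locus, and they are released again during recovery. A short spliced transcript is exported to the cytoplasm.

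The 12 libraries came from adult heads of the cross Hsp70Gal4 x UASCaperFlag, in which a heat-shock promoter drives Gal4 and thereby FLAG-tagged Caper. The groups were 3 immunoprecipitates (IPs) with a mouse antibody to the FLAG tag (pairs 4 to 6), 3 IPs with a rabbit antibody to Caper (pairs 1 to 3), and the input of each of the 6 IPs. All flies, those of the inputs included, were kept at 37°C for 2 h and then at 30°C overnight, and all carried the transgenes. Unshocked flies, flies without the transgene and mock IPs were not among the libraries analysed here, so the response of Hsromega to heat or to extra Caper, and its nonspecific recovery on beads, could not be measured. Each antibody was used on lysates of its own, so antibody and lysate cannot be told apart. The labels do not say whether the libraries of a group came from separate sets of flies, and p-values then measure only the spread between these libraries, which may be technical.

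The IPs held 20431211 to 34264177 read pairs assigned to genes and the inputs 9615414 to 12579559. In the IPs 21.7 to 40.9% of what the counting tool was given was set aside as multimapping, against 71.7 to 75.2% in the inputs. Mitochondrial genes took 0.546 to 2.61% of the gene counts in the IPs and 7.37 to 9.66% in the inputs. In the inputs the markers of photoreceptors (ninaE, ninaC, trp), neurons (elav, nSyb, Syt1, brp) and glia (repo, nrv2, alrm) each had 402 or more counts in every input. The gut, germline and testis markers had at most 58 counts in any input. Of the flight muscle genes, Act88F had 196 to 963 counts, fln 1 to 263 and TpnC4 0 to 23. The fat body genes Yp1, Yp2 and Lsp2 were at 5425 counts or more.

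The gene lies on chromosome 3R from 21296127 to 21317836 on the plus strand (FlyBase dmel_r6.36). Its annotated exons cover 21710 bases, which is 100% of its span and makes it the 20th longest of the 17612 genes, whose median is 1425.5 exon bases. The table lists 8 distinct exon intervals, of which 5 start at base 495 of the gene and the longest holds 21216 bases. An intron of 712 bases (21297098 to 21297809) separates exon intervals that end at 21297097 from intervals that start at 21297810. The latter hold 699 and 12897 bases, so both a short and a long exon are annotated after the splice. The intron is exonic in intervals of 1888 to 21216 bases. Because all of these bases were counted to the gene, spliced and unspliced, or cytoplasmic and nuclear, forms of Hsromega could not be told apart in these counts. No other gene of the table overlaps Hsromega on either strand. The nearest genes, both on the minus strand, are SIFaR, 2128 bases from the start, and aus, 463 bases from the end. RefSeq places the microRNA gene mir-4951 inside the span (21316716 to 21316865), which was not analysed here.

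**Figure D1:**
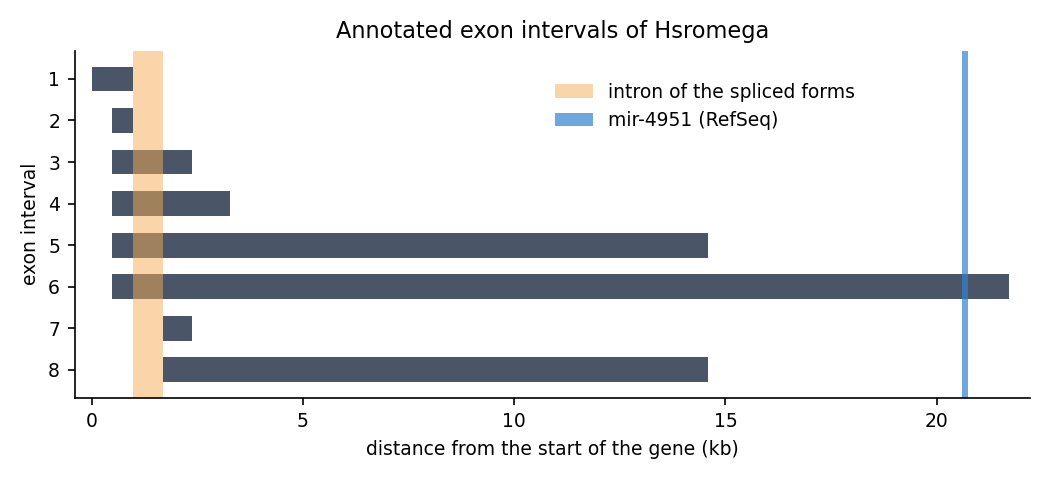
Annotated exon intervals of Hsromega, as dark bars, against the distance from the start of the gene in kb. The orange band is the 712-base intron of the spliced forms, which 4 of the exon intervals cover, and the blue band is mir-4951 in the RefSeq annotation.

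Hsromega was abundant in every library. Its counts in the FLAG IPs were 15537, 12106 and 17822 (pairs 4, 5 and 6), against 7612, 7132 and 7439 in their inputs. In the Caper IPs they were 20708, 18433 and 18898 (pairs 1, 2 and 3), against 5770, 7413 and 9052 in their inputs. These counts give a counting error of 0.695 to 0.909% of the level in the IPs and 1.05 to 1.32% in the inputs, which covers counting only. By raw count it ranked between 172nd and 363rd of all genes in the IPs and between 189th and 301st in the inputs.

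Scaled for library size with TMM factors, as CPM, the level in the FLAG IPs was 718.9, 513.8 and 766.7 CPM, against 757.3, 599.6 and 786.9 CPM in the FLAG inputs. In the Caper IPs it was 571.7, 708.4 and 748.4 CPM, against 553.3, 731.1 and 780.6 CPM in the Caper inputs. The ranges of IPs and inputs overlapped with both antibodies. In the order of the means stood the FLAG IPs (666.5 ± 134 CPM), the Caper IPs (676.2 ± 92.7), the Caper inputs (688.3 ± 119.5) and the FLAG inputs (714.6 ± 100.7 CPM, SD, n = 3 each). No neighbours in that order differed beyond their spread. In bulk heads, fewer cells that express an RNA and less of it per cell cannot be told apart.

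The lysates differed among themselves by more than the IPs and inputs did on average. Pairs 1 and 5 were the lowest, at 571.7 and 513.8 CPM in their IPs and 553.3 and 599.6 CPM in their inputs. The other 4 pairs lay between 708.4 and 766.7 CPM in the IPs and between 731.1 and 786.9 CPM in the inputs, with no overlap with pairs 1 and 5. With so clear a gap a single correlation over the 6 pairs has no use, and none is given. The coefficient of variation of Hsromega was 15.4% over the 6 IPs and 14.2% over the 6 inputs, where the medians over 8791 genes were 16.6 and 11.1%.

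**Figure D2:**
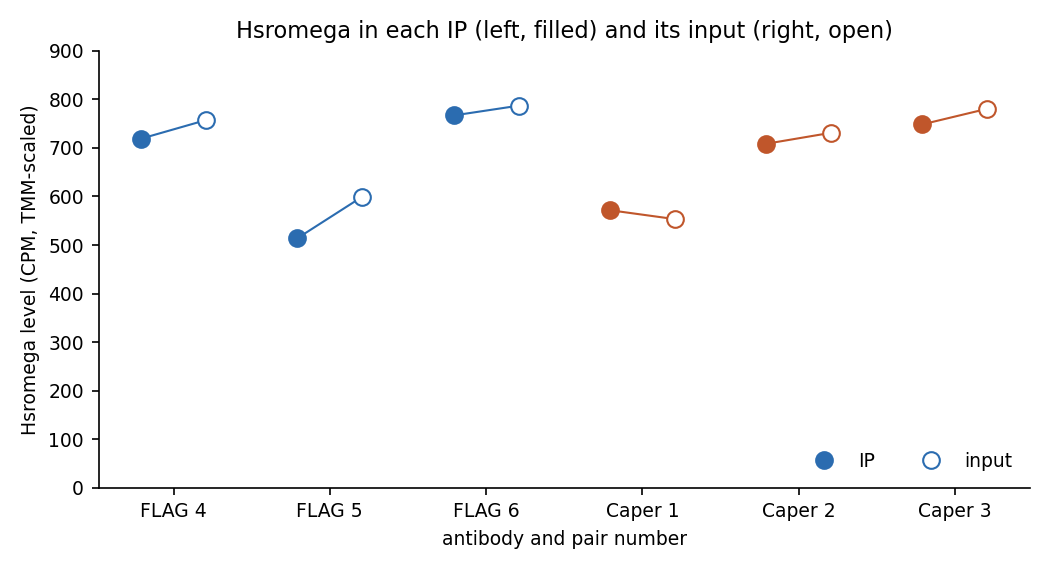
Level of Hsromega (CPM with TMM factors, linear axis from 0) in each IP (filled, left) and its input (open, right), joined by a line for each of the 6 pairs. The points of pairs 1 and 5 sit between 513.8 and 599.6 CPM in IP and input alike, and the other 4 pairs between 708.4 and 786.9 CPM.

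Per length, with its counts divided by 21710 bases, Hsromega was less prominent. Its level was 23.7 to 35.3 CPM per kb of exon in the IPs and 25.5 to 36.2 in the inputs, ranks of 1599 to 2650 and 1571 to 2387 of 17612 genes. Among the 551 long noncoding RNAs tested over the 12 libraries it was 13th by CPM per kb in the inputs, at 32.3 against a median of 1.31. It held 2.51 to 3.73% of all counts on long noncoding RNAs in the IPs and 2.85 to 3.66% in the inputs. Pairs from the tandem repeats of Hsromega may map to several places and would then not be counted. Its level per kb may therefore be too low, by an amount that was not measured. Short and long forms share the same divisor.

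Hsromega was neither enriched nor depleted at the test's threshold with either antibody. Its log2 fold change, FLAG IP over FLAG input, was -0.09 (SE 0.18, 95% interval -0.50 to 0.33, edgeR adjusted p = 0.727). With the Caper antibody it was -0.01 (SE 0.17, 95% interval -0.42 to 0.40, edgeR adjusted p = 0.977). On the linear scale the intervals run between 0.705 and 1.26 times the input with FLAG, and between 0.747 and 1.32 times the input with Caper. For comparison, 19.5% of the 10476 genes tested with FLAG were higher in the IP and 20.8% lower. With Caper, 6.33% of 10778 genes were higher and 7.53% lower.

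The fit that pairs each IP with the input of the same number narrowed the intervals without a call for Hsromega. In it the log2 fold change was -0.10 with FLAG (95% interval -0.27 to 0.07, edgeR adjusted p = 0.289) and -0.01 with Caper (95% interval -0.19 to 0.17, edgeR adjusted p = 0.959), that is 0.830 to 1.05 and 0.879 to 1.13 times the input. It called 29.6% of genes higher and 29.5% lower with FLAG, and 15.8% higher and 14.8% lower with Caper. Of all genes tested without the pairing, 11.5% had a smaller absolute log2 fold change than Hsromega with FLAG, and 2.20% with Caper.

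**Figure D3:**
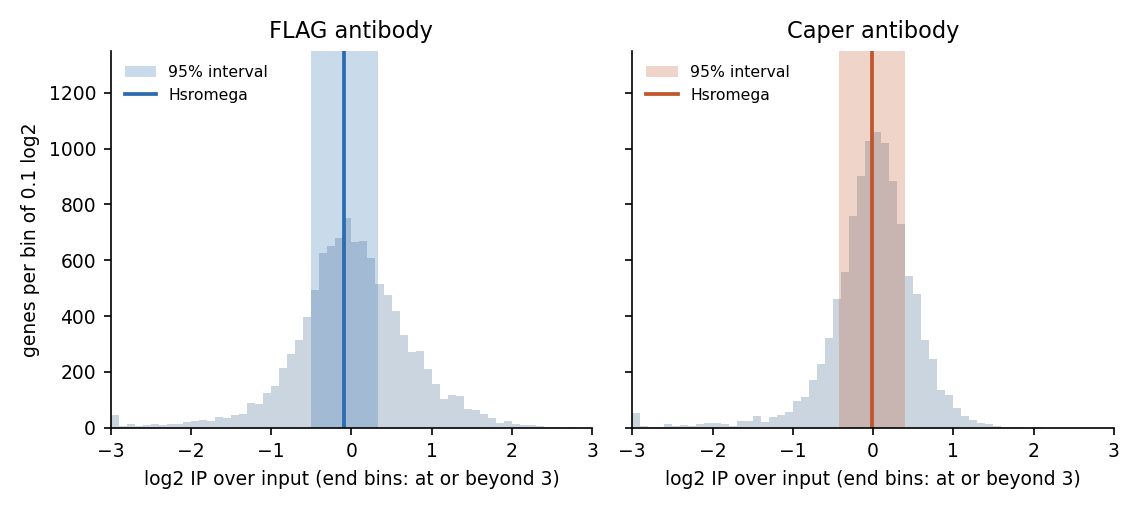
Number of genes per 0.1 log2 of IP over input for all genes tested, with the FLAG antibody (left, 10476 genes) and the Caper antibody (right, 10778 genes). The vertical line is Hsromega, at -0.09 with FLAG and -0.01 with Caper, with its 95% interval as a band, and the end bins also hold the 37 (FLAG) and 49 (Caper) genes whose change was 3 or more in size.

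Pair by pair, the log2 ratio of IP over input was -0.07, -0.22 and -0.04 in FLAG pairs 4, 5 and 6, and 0.05, -0.05 and -0.06 in Caper pairs 1, 2 and 3. Hsromega was thus slightly lower in the IP in 5 of the 6 pairs, with a mean of -0.07 ± 0.09 (SD, n = 6). An exact two-sided test over all flips of the pairs' signs gave p = 0.125, where the smallest it can give is 0.03125. Within each pair, 35.03 to 52.97% of genes had a lower ratio than Hsromega. With total counts in place of TMM factors the mean was 0.07 (exact sign-flip p = 0.219), higher in 5 of 6 pairs, so the direction depended on the scaling. Total counts also put the median log2 fold change of all genes at 0.09 with FLAG and 0.18 with Caper, where TMM puts it at -0.00 and 0.03. Hsromega then stood at 0.01 and 0.14. The share of counts left after mitochondrial and rRNA genes were taken out was 0.0518 to 0.0829% in the IPs and 0.0578 to 0.0836% in the inputs.

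No difference between the antibodies passed the test for Hsromega. The difference of the log2 fold changes, FLAG minus Caper, was -0.07 (SE 0.26, 95% interval -0.65 to 0.50, edgeR adjusted p = 0.932), and 0.963% of 11012 genes passed this test. With the pairing it was -0.09 (95% interval -0.31 to 0.13, edgeR adjusted p = 0.595). The level before immunoprecipitation was compared as well, and FLAG inputs over Caper inputs gave 0.05 (SE 0.15, 95% interval -0.30 to 0.41, edgeR adjusted p = 1). Of 9944 genes, 0% passed this test, edgeR called 0 and DESeq2 called 0, while 176 had an unadjusted edgeR p under 0.05.

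Genes of a similar length or level give the setting of this result. Among 270 other tested genes with at least 10000 exon bases, the median log2 fold change was 0.12 with FLAG, where 68 were higher and 41 lower, that is 25.2 and 15.2%, against 19.5 and 20.8% of all genes. With Caper their median was -0.20, where 5 were higher and 59 lower (1.85 and 21.9%, against 6.33 and 7.53% of all genes). With the pairing 118 of these long genes were higher and 69 lower with FLAG (43.7 and 25.6%, against 29.6 and 29.5% of all genes). With Caper the paired fit had 15 higher and 103 lower (5.56 and 38.1%, against 15.8 and 14.8% of all genes). Among 438 genes whose input level was within 2-fold of that of Hsromega (350.7 to 1403 CPM), the medians were -0.15 with FLAG (82 higher, 152 lower) and -0.05 with Caper (35 higher, 58 lower). That is 18.7 and 34.7% with FLAG, and 7.99 and 13.2% with Caper. With the pairing the counts were 121 and 204 with FLAG (27.6 and 46.6%), and 83 and 118 with Caper (18.9 and 26.9%). These groups were chosen after the values of Hsromega had been seen.

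The messenger RNAs of proteins known from omega speckles or from binding Hsromega were more abundant in many cases in the FLAG IPs than in their inputs. These are the mRNAs, so their counts say nothing of where the proteins were. All 17 on the list were tested, and with FLAG 9 rose and 0 fell in edgeR, that is 52.9 and 0%, against 19.5 and 20.8% of all genes. The list median was 0.46, against -0.00 for all genes. With the pairing 11 rose and 1 fell (64.7 and 5.88%, against 29.6 and 29.5% of all genes). With Caper 0 rose and 0 fell in edgeR, with a median of 0.08 against 0.03 for all genes. In the paired Caper fit 1 rose (Pep) and 1 fell (HnRNP-K), 5.88% each, against 15.8 and 14.8% of all genes. At an unadjusted p under 0.05, 11 were higher and 1 lower with FLAG, and 3 were higher and 2 lower with Caper, where the shares over all genes were 24.5 and 25.3% with FLAG, and 15.7 and 14.6% with Caper. DESeq2 called 10 higher and 1 lower with FLAG, and 0 higher and 1 lower with Caper, where it called 18.7 and 19.1% of all genes with FLAG, and 8.92 and 10.7% with Caper.

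The FLAG rise was led by Saf-B, a scaffold attachment factor that binds RNA and chromatin. Its level was 202.6, 312.4 and 243.5 CPM in the FLAG IPs, against 106.1, 107.5 and 101.2 CPM in their inputs, a log2 fold change of 1.28 (SE 0.15, edgeR adjusted p = 0.000894). In the Caper IPs Saf-B stood at 161.1, 105.8 and 103.3 CPM, against 104.5, 99.22 and 105 CPM in their inputs. All 3 FLAG IPs were above all inputs, while Caper IP 3 lay in the range of its inputs and Caper IP 2 just above it.

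Most of the others that rose with FLAG encode RNA-binding proteins. They included glo, an hnRNP F/H homologue (0.91), Top1, the topoisomerase that relaxes DNA during transcription (0.89), Rb97D, an hnRNP-type protein (0.88), nonA, the fly relative of the paraspeckle protein NONO (0.87), Pep, a zinc finger protein of active puffs (0.59), and the hnRNP A homologues Hrb87F (0.53) and Hrb98DE (0.46), all as log2 fold changes. Leaving out a FLAG library in turn kept 7 to 9 of the 17 as higher. Of the genes named here, Hrb87F lost its call, in 4 of the 6 such fits, with an edgeR adjusted p of up to 0.105.

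The 8 without a call with FLAG covered a range of functions. Hsp83, the Hsp90 chaperone, had a log2 fold change of 0.68 (SE 0.23, edgeR adjusted p = 0.0512), and passed with the pairing (0.69, edgeR adjusted p = 8.97e-06). TBPH, the TDP-43 orthologue, had 0.25, and with the pairing 0.26 with an edgeR adjusted p of 0.0168. The remodelling ATPase Iswi had 0.14, Sxl, the master regulator of sex determination, 0.12, the hnRNP sqd 0.06, the import receptor Tnpo -0.02, HnRNP-K -0.15, and Syp, the Syncrip homologue, -0.22, which with the pairing was called lower (-0.22, edgeR adjusted p = 0.0229).

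**Figure D4:**
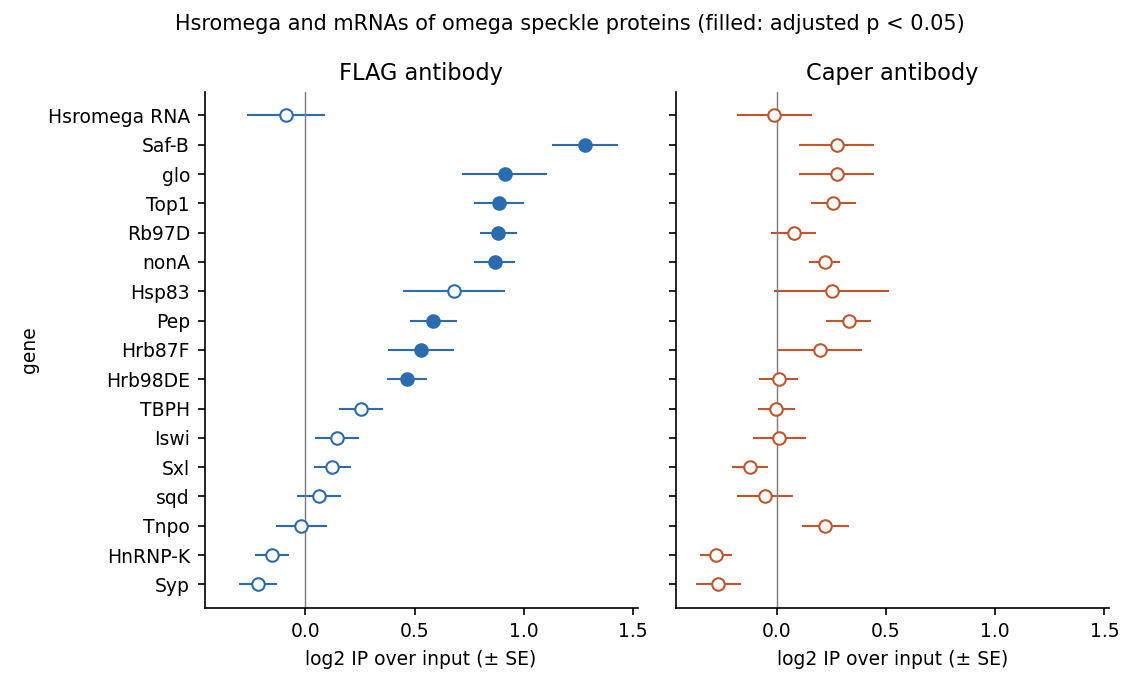
Log2 fold change, IP over input, with its SE, for Hsromega (top row) and 16 of the 17 mRNAs of omega speckle or Hsromega-binding proteins, with the FLAG antibody (left) and the Caper antibody (right). Filled points passed an adjusted p of 0.05 without the pairing: 8 of those drawn with FLAG, led by Saf-B at 1.28, and none with Caper.

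The other heat-inducible genes gave a mixed picture. Of the 18 on the list, 15 had enough counts to be tested. Hsp22 had 0 counts in every library, and Hsp70Bbb and CG4456 had at most 12 and 5. Hsp22 (3L, 9372931 to 9374964) lies inside the span of CG4456 (9372722 to 9374964) on the same strand. Pairs that fit both genes were ambiguous and not counted, so the levels of Hsp22 and CG4456 cannot be read from these counts. With FLAG 5 rose and 2 fell, with a median of 0.33, that is 33.3 and 13.3%, against 19.5 and 20.8% of all genes. With Caper 2 rose and 1 fell, with a median of 0.18, that is 13.3 and 6.67%, against 6.33 and 7.53% of all genes. With the pairing 7 were higher and 4 lower with FLAG (46.7 and 26.7%, against 29.6 and 29.5% of all genes), and 3 and 3 with Caper (20% each, against 15.8 and 14.8%).

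stv, a co-chaperone of the BAG family, rose with both antibodies. It stood at 417.2, 494.7 and 380.3 CPM in the FLAG IPs, against 230.4, 243 and 211.1 CPM in their inputs (log2 fold change 0.93, SE 0.12, edgeR adjusted p = 0.00123). In the Caper IPs it was 333.2, 330.5 and 302.1 CPM, against 207.8, 225.6 and 225.8 CPM in their inputs (0.56, SE 0.08, edgeR adjusted p = 0.0108), a call lost without Caper input 1 or Caper input 2 (adjusted p = 0.0674 and 0.0870). All IPs of stv were above all inputs.

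Hsp67Bc, which encodes a small heat shock protein, went the other way. It had 3.93, 5.26 and 2.11 CPM in the FLAG IPs, against 12.4, 9.50 and 12.4 CPM in their inputs (log2 fold change -1.59, SE 0.31, edgeR adjusted p = 0.00630). Its fall with Caper (-1.16, edgeR adjusted p = 0.0389) was kept in only 1 of 6 fits with a library left out, that without Caper IP 1. Hsp67Ba, a neighbour of the same cluster of small heat shock genes, fell with FLAG (-0.71, SE 0.15, edgeR adjusted p = 0.00958).

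Hsp27 rose with both antibodies, by 0.78 with FLAG and 0.65 with Caper on the log2 scale. The first call was lost without FLAG input 6 (edgeR adjusted p = 0.0590), and the second without Caper inputs 1 or 2 or Caper IPs 2 or 3 (adjusted p 0.0680 to 0.140). Hsf, the transcription factor of the heat shock response, rose with FLAG by 0.42 (SE 0.09, edgeR adjusted p = 0.0104). Hsp70Bb and Hsp70Ba, copies of the major inducible Hsp70, rose with FLAG by 1.22 and 1.56, and each call was lost in 3 of 6 fits with a library left out. The Hsp70 copies are nearly identical, and pairs that mapped to several of them were not counted, so their separate values are uncertain. The number of heat-inducible genes higher with FLAG was 3 without FLAG input 5 and 2 without FLAG input 6. With Caper it was 4 without IP 1, 0 without input 1 or input 2, and 1 without IP 2 or IP 3, and the 1 that fell was called only without Caper IP 1.

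In the low lysates of pairs 1 and 5, several heat shock genes were low together with Hsromega. Each library's log2 CPM was set against the mean of its own group, and these deviations were compared over the 12 libraries as a description, since IP and input of a pair come from 1 lysate and many genes share the same contrast between lysates. The correlation with Hsromega was 0.90 for Hsp83, 0.82 for DnaJ-1, an Hsp40 co-chaperone, and 0.75 for Hsp68, an Hsp70 relative, all 3 chosen for it. It did not hold over the other 8 libraries, at -0.07, -0.55 and -0.65. Such values without pairs 1 and 5 still use group means that include these pairs, so they are not free of them. Over the 15 heat-inducible genes 11 correlations (73.3%) were above 0 with all 12 libraries (median 0.44), and 1 without pairs 1 and 5 (median -0.58). Of 8790 genes, 4541 (51.7%) were above 0 with all 12 libraries (median 0.05), and 4456 without pairs 1 and 5 (median 0.01). Of all genes, 20.2% had a correlation beyond 0.8 in size over the 12 libraries.

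The values of Hsp83 show the low lysates. It stood at 949.4, 762.9 and 1194 CPM in FLAG IPs 4, 5 and 6, against 695.8, 427.4 and 706.2 CPM in their inputs. In Caper IPs 1, 2 and 3 it stood at 535.1, 972.1 and 806.6 CPM, against 489, 747.8 and 728.6 CPM in their inputs. As with Hsromega, pairs 5 and 1 were the lowest of their antibody in IP and input. The deviations of Hsromega were -0.35 and -0.24 in FLAG IP 5 and its input, and -0.23 and -0.30 in Caper IP 1 and its input, and all of its other 8 deviations lay between 0.08 and 0.22. The part of sample handling in this was not tested.

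**Figure D5:**
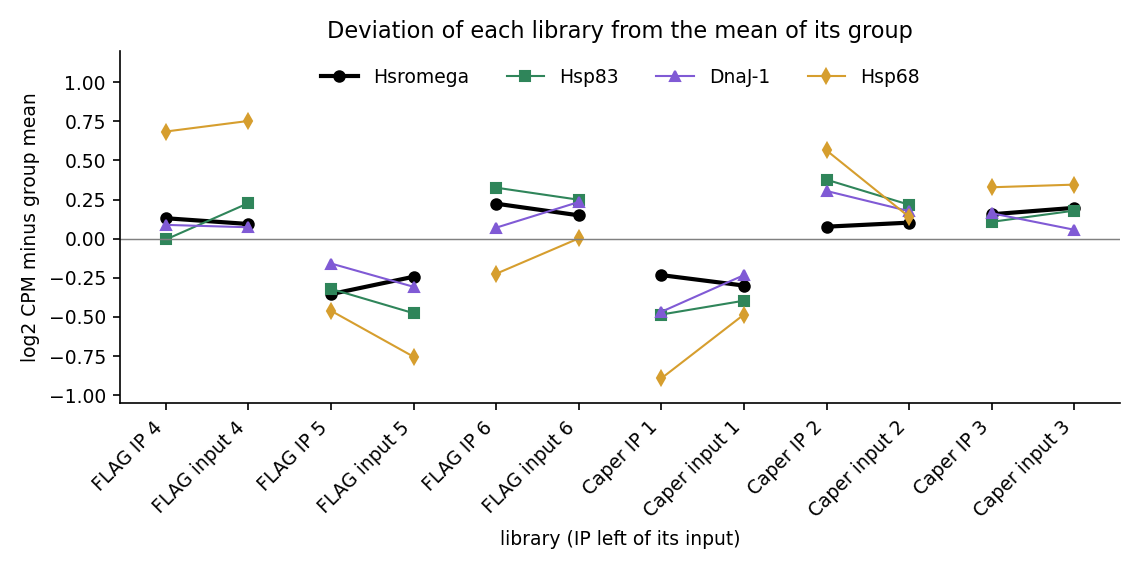
Deviation of each library's log2 CPM from the mean of its group for Hsromega (black), Hsp83, DnaJ-1 and Hsp68, with each IP left of its input. In pair 1 and pair 5 all 4 genes lie below 0 in IP and input.

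The omega speckle mRNAs had no settled relation to Hsromega across libraries. The median of their correlations was -0.50 over the 12 libraries, with 4 of 17 above 0. It was -0.24 over the inputs, with 7 above 0, and -0.71 over the IPs, with 3 above 0. Without pairs 1 and 5, though with group means that still included them, the median was 0.06, with 11 above 0. Of 8790 genes, 4541 were above 0 over the 12 libraries, 4604 over the inputs, 4431 over the IPs and 4456 without pairs 1 and 5. For glo the correlation was 0.77 in the inputs and -0.95 in the IPs, and for Hrb98DE 0.70 in the inputs and -0.75 in the IPs.

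The genes most like Hsromega over the 12 libraries were CG31510 (r = 0.96), the inositol phosphatase gene 5PtaseI (0.94), ValRS-m, a mitochondrial tRNA synthetase (0.94), CG14879 (0.93) and CG6282 (0.92). By deviations from the group means they were CG31510 (0.98), gkt, a tyrosyl-DNA phosphodiesterase (0.98), CG14647 (0.97), Lap1 (0.97) and ND-51L1 (0.97). Only CG31510 was on both lists, and without pairs 1 and 5 it had 0.89 and 0.82. The other 4 of the first list then had 0.19 to 0.73, and those of the second 0.55 to 0.74. For the second list the group means still included pairs 1 and 5. With Spearman's correlation 2 and 0 of the 5 were again among the 5 most alike, so single names on these lists are not firm.

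The other long noncoding RNAs with many counts differed among themselves. Of the 10 with the highest mean CPM in the inputs, Hsromega included, 1 was higher, 5 lower and 4 without a call with FLAG. With Caper 2 were lower and 8 without a call. Over all genes, 19.5% were higher and 20.8% lower with FLAG, and 6.33 and 7.53% with Caper. lncRNA:CR34335 and lncRNA:CR40469 were called lower with both antibodies, with log2 fold changes of -2.97 and -3.09 with FLAG and -2.63 and -2.88 with Caper. With FLAG lncRNA:CR42862 rose (2.075, edgeR adjusted p = 0.000626) and lncRNA:CR31781 fell (-0.93, edgeR adjusted p = 0.0154). Like Hsromega, lncRNA:noe, lncRNA:mimi and lncRNA:CR43459 had no call with either antibody. lncRNA:noe had log2 fold changes of -0.31 with FLAG (edgeR adjusted p = 0.284, and 0.0213 with the pairing, called lower) and -0.00 with Caper (edgeR adjusted p = 0.999). lncRNA:mimi had 0.05 with FLAG and 0.24 with Caper (edgeR adjusted p = 0.842 and 0.219). For lncRNA:CR43459 they were 0.61 with FLAG (edgeR adjusted p = 0.0753, and 2.42e-05 with the pairing, called higher) and 0.21 with Caper (edgeR adjusted p = 0.531). roX2, an RNA of the dosage compensation complex that coats the male X chromosome, stood at 31.97, 31.41 and 33.73 CPM in the FLAG IPs, against 91.13, 74.32 and 90.76 CPM in their inputs. Its log2 fold change with FLAG was -1.39 (SE 0.10, edgeR adjusted p = 0.000188). With Caper it had 70.68, 60.11 and 69.66 CPM in the IPs, against 70.29, 83.83 and 88.48 CPM in their inputs (-0.26, edgeR adjusted p = 0.190). roX1, its partner, fell with FLAG (-0.35, SE 0.12, edgeR adjusted p = 0.0466), a call kept in only 1 of 6 fits with a library left out, that without FLAG IP 4. With Caper roX1 had a log2 fold change of 0.42 (edgeR adjusted p = 0.115), and with the pairing it was called higher (0.43, edgeR adjusted p = 0.0345). The alphagamma-element RNA CR32865, another heat-induced noncoding RNA, had 8 to 57 counts a library and log2 fold changes of -0.08 with FLAG and -0.05 with Caper (edgeR adjusted p = 0.931 and 0.969).

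Of 2432 other long noncoding and antisense RNAs, 473 were tested with FLAG, where 82 rose and 21 fell (median 0.39), and 487 with Caper, where 28 rose and 5 fell (median 0.28). With FLAG that is 17.3 and 4.44%, against 19.5 and 20.8% of all genes, whose median was -0.00, and with Caper 5.75 and 1.03%, against 6.33 and 7.53% of all genes, whose median was 0.03. The shares that rose were thus near those of all genes. A gene could pass the count filter through the IPs alone, which hold more counts, and 319 of these RNAs passed it on the inputs alone. Scarce RNAs may therefore have been tested only because they were high in the IPs. The medians above 0 and the surplus of rises over falls cannot be separated from this selection. With the pairing 152 rose and 37 fell with FLAG (32.1 and 7.82%, against 29.6 and 29.5% of all genes). In the paired Caper fit 63 rose and 13 fell (12.9 and 2.67%, against 15.8 and 14.8% of all genes). The numbers changed when 1 library was left out, as did the number of all genes called. The latter then ran from 2914 to 3858 with FLAG and from 112 to 2312 with Caper. With FLAG 48 rose without FLAG IP 6, and 12, 13 and 11 fell without FLAG input 4, IP 6 or input 6. With Caper 43 rose and 11 fell without Caper IP 1, and 2, 4, 0, 5 and 12 rose without Caper input 1, IP 2, input 2, IP 3 or input 3.

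The genes around Hsromega moved in both directions or had no call. Of 31 genes within 50 kb, 11 were tested, and with FLAG 2 rose and 2 fell, that is 18.2% each, near the 19.5 and 20.8% of all genes. At an unadjusted p under 0.05, by DESeq2 and with the pairing, 3 rose and 2 fell with FLAG. With the pairing that is 27.3 and 18.2%, against 29.6 and 29.5% of all genes. With Caper 0 rose and 1 fell in edgeR, that is 0 and 9.09%, against 6.33 and 7.53% of all genes. At an unadjusted p under 0.05, by DESeq2 and with the pairing, 0 rose and 2 fell with Caper. In the paired Caper fit that is 0 and 18.2%, against 15.8 and 14.8% of all genes. SIFaR, the SIFamide receptor gene next to the start, had log2 fold changes of 0.03 with FLAG and -0.09 with Caper (edgeR adjusted p = 0.879 and 0.596). aus, next to the end, rose with FLAG (0.42, SE 0.10, edgeR adjusted p = 0.0133), at 300.9, 337.3 and 336.7 CPM in the IPs against 225.7, 265.6 and 241.4 CPM in their inputs. The call was lost without FLAG input 4 or input 6 (adjusted p = 0.0557 and 0.0627). mod(mdg4), a chromatin insulator gene, also rose (0.39, edgeR adjusted p = 0.0132), a call lost without FLAG IP 6 or input 6 (adjusted p = 0.0553 and 0.0581).

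The 2 that fell with FLAG lay upstream. AP-2sigma, a clathrin adaptor subunit gene, had 8.10, 7.55 and 7.18 CPM in the FLAG IPs, against 22.1, 20.8 and 20.5 CPM in their inputs (log2 fold change -1.46, SE 0.11, edgeR adjusted p = 0.000175). It fell with Caper too (-1.12, SE 0.17, edgeR adjusted p = 0.0120), a call lost without Caper input 1 or input 2 (adjusted p = 0.0532 and 0.0783). Rab1, the small GTPase of transport out of the endoplasmic reticulum, fell with FLAG (-0.64, SE 0.11, edgeR adjusted p = 0.00343), and with Caper it had -0.34 (edgeR adjusted p = 0.0676), called lower with the pairing (-0.35, edgeR adjusted p = 0.0136). ETHR, the receptor gene of ecdysis triggering hormone, had 0.88 with FLAG (SE 0.35, edgeR adjusted p = 0.0793), and was called higher with the pairing (0.88, edgeR adjusted p = 2.16e-05). With Caper ETHR had 0.61 (edgeR adjusted p = 0.192, and 0.0504 with the pairing), and its IP was above its input in all 6 pairs. For the other 5 tested neighbours (asRNA:CR45798, Idi, CG3308, CG3301 and CG17298) no call was made with either antibody, with or without the pairing.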

How the data were processed

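The authors trimmed 150-base read pairs with fastp (0.20.1), checked them with FastQC (0.11.8), mapped them with STAR (2.7.6a) to FlyBase dmel_r6.36 and counted them with featureCounts (Subread 2.0.1), by strand, over the exons of each gene, from alignments with a mapping quality of at least 20. Libraries were made from total RNA with depletion by Drosophila probes. The deposited values are raw counts of read pairs per gene, not normalized. Multimapping and ambiguous pairs were not counted, which lowers genes with near copies. The gene length in the deposited table is the number of exon bases, and was the divisor for levels per kb.

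From these, edgeR (4.0.16, in R 4.3.3) gave the fold changes, with TMM factors, genes kept by filterByExpr (minimum count 10, minimum total 15), the quasi-likelihood test, and Benjamini-Hochberg adjustment over all genes tested, called at 0.05. Each antibody was fitted on its own 6 libraries, the difference between antibodies on 12, and the inputs on 6. Log2 CPM used a prior count of 2. SEs are the log2 fold change over the root of the F statistic. The scripts were tested on simulated data.

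The numbers in the labels join each IP to its input (RIP1 to RIP6). IP and input of 1 number deviated together over 11012 genes, with correlations of 0.770, 0.152, 0.642, 0.605, 0.649 and 0.524 for pairs 1 to 6, where the other pairings had a median of -0.28, so the numbers pair the samples. The main fit leaves the pairing out, as the methods name no such term.

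Alternatives were DESeq2 (1.42.0), RLE factors, total counts, totals without mitochondrial and rRNA genes or without heat-inducible genes, other filters, the pairing, 12 libraries in the fit, and each library left out. Leaving libraries out for the gene lists, the deviations over libraries of listed genes, their correlations without pairs 1 and 5, and the levels among long noncoding RNAs were added after seeing the data. Hsromega and the gene lists were chosen with earlier results of these data known. Named genes were Hsromega, tested neighbours within 50 kb, members of the speckle and heat lists, and the 5 genes most correlated with it among those with a mean of at least 50 counts. Symbols came from RefSeq genes at the same positions (17178 of 17612 genes) and from the pairs of identifier and symbol in the study's tables. The germline marker nos was not matched. For 1 gene of the speckle list, which is in the counts of that list, single values are not reported here. The genome sequence was not used here, so heat shock elements and the tandem repeats were not searched.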

Additional observations from a re-analysis of the deposited data

Results flagged for a closer look

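Among Hsromega and the genes set beside it, 3 changed differently in the FLAG and the Caper IPs by the test of the difference itself in edgeR (FLAG minus Caper, 3 libraries in each of 4 groups). They were 2 of 17 speckle mRNAs (11.8%) and 1 of 550 other long noncoding RNAs (0.182%), against 0.963% of all 11012 genes. Of 15 heat-inducible genes and 11 neighbours, 0 passed. The difference for Rb97D was 0.81 on the log2 scale (SE 0.13, edgeR adjusted p = 0.0245). Its level was 83.57, 96.3 and 88.63 CPM in the FLAG IPs, against 47.85, 48.85 and 49.93 CPM in their inputs, and 53.92, 54.61 and 44.67 CPM in the Caper IPs, against 50.34, 46.26 and 50.02 CPM in theirs. The difference for nonA was 0.65 (SE 0.11, edgeR adjusted p = 0.0286). Its level was 174.6, 202 and 208.8 CPM in the FLAG IPs, against 103.6, 107.7 and 112.3 CPM in their inputs, and 131.4, 122.4 and 119.2 CPM in the Caper IPs, against 106.1, 107.6 and 109.9 CPM in theirs. For lncRNA:roX2 it was -1.12 (SE 0.16, edgeR adjusted p = 0.0182), with the levels given above.

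With the pairing of IP and input these differences had edgeR adjusted p of 0.00416 (Rb97D), 0.00423 (nonA) and 0.00202 (lncRNA:roX2). With 1 library left out, their sizes changed little, but the calls were often lost. The differences then ran from 0.723 to 0.861 for Rb97D, from 0.599 to 0.725 for nonA and from -1.21 to -1.026 for lncRNA:roX2. Of the 12 fits that leave 1 library out, 3 kept the call for Rb97D (without Caper IP 1, FLAG IP 4 or FLAG input 5), 2 for nonA (without Caper IP 1 or FLAG IP 4) and 7 for lncRNA:roX2, which lost it without Caper IP 3, FLAG input 4, FLAG IP 5, FLAG IP 6 or FLAG input 6. The highest adjusted p in those fits were 0.0982 for Rb97D, 0.120 for nonA and 0.0859 for lncRNA:roX2. Antibody and lysate cannot be told apart in these differences.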

How the results depend on the processing

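No alternative gave a call for Hsromega: 0 of 18 with FLAG, 0 of 18 with Caper, 0 of 20 for the difference between antibodies and 0 of 14 for the inputs (lowest edgeR or DESeq2 adjusted p 0.244, 0.588, 0.595 and 0.999). Its sign was not settled. The log2 fold change with Caper was 0.14 with total counts, 0.026 without a count filter and 0.014 in the replicate block without pair 2, and -0.17 to 0.10 with a library left out. With FLAG it was 0.0099 with total counts and -0.205 to 0.0609 with a library left out. The difference between antibodies ran from -0.187 to 0.0824 and FLAG over Caper inputs from -0.0816 to 0.163 with a library left out. The mean over the 6 pairs was 0.0695 with total counts. With the replicate block, the pairing of IP and input, Hsromega had -0.10 with FLAG, -0.01 with Caper and -0.09 for the difference.

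Over all genes, the replicate block called 3307 with Caper, against 1494 without it, and 1328 for the difference between antibodies, against 106 without it. For that difference DESeq2 called 572, no count filter 39 and at least 10 counts in every library 177. With a library left out, the number called ran from 112 (without Caper input 2) to 2312 (without Caper IP 1) with Caper, from 2914 to 3858 with FLAG, and from 1 (without FLAG input 4) to 518 (without Caper IP 1) for the difference. The cause was not tested. The counting error of Hsromega was smaller than its spread between libraries.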
